A study of Mus musculus with 6 samples.

Results

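A set of 9 genes of the interleukin-1 (IL-1) family were examined in macrophages from the peritoneal cavity of mice with ovarian tumors: the ligands Il1a, Il1b, Il18 and Il33, the receptor antagonist Il1rn, and the receptor genes Il1r1, Il1r2, Il1rap and Il1rl1. They were chosen by gene symbol, and all 9 were present among the 754 genes of the myeloid panel that was measured. The NanoString nCounter assay counts color-coded probes bound to each transcript without amplification. The 6 samples came from C57BL/6J mice carrying ID8 tumors, a transplanted mouse ovarian cancer line, and held F4/80+ CD11b+ cells sorted by flow cytometry from peritoneal lavage, with treatment begun 7 weeks after the tumor cells were given. The 3 PBS samples were from mice injected intraperitoneally with phosphate-buffered saline, and the 3 IRF5-NP samples from mice injected by the same route with nanoparticles carrying mRNA for mouse IRF5, an interferon regulatory factor. By the labels, mice of each group were dosed 2 times, the first dose falling on day 1 and the second on day 5, and an IRF5-NP dose held 30 µg of mRNA. The study's methods give another dose and tumor age, name a mixture with mRNA for the kinase IKKβ, and describe young female mice of the albino strain C57BL/6J-Tyr<c-2J> with ID8 cells that express VEGF, a vascular growth factor. The labels call the mice adult and give neither the albino allele nor VEGF, and by them strain, tumor and age were the same in both groups. None of the 6 samples came from mice given particles without IRF5 mRNA, so an effect of the particle and one of the delivered gene cannot be told apart. The labels do not say whether each sample was 1 animal, and p-values measure only the spread between these samples.

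The agonists IL-1α and IL-1β bind the receptor IL1R1, which then recruits the accessory chain IL1RAP and signals through MyD88 to NF-κB and AP-1. This signal is restrained at the same step by the antagonist encoded by Il1rn, which occupies the receptor without recruiting the accessory chain, and by IL1R2, a decoy that binds the agonists but has no signalling domain. Macrophages are a major source of the agonists and of the antagonist, and pro-IL-1β and pro-IL-18 are cut to their active forms by caspase-1 in the inflammasome, a step that transcript counts do not show. The question asked of these samples was whether transcripts of the agonists and of their restraints moved alike or apart after IRF5-NP treatment.

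The starts of the 4 genes on which this contrast turned are shown as the RefSeq promoter windows of mouse assembly GRCm38.p6, from 250 bases before to 50 bases after the start site, written 5′ to 3′ on the strand of the gene. Capitals mark exact matches, on either strand, to any of 6 motifs: a TATA box (TATAAA), AP-1 (TGANTCA), NF-κB (GGG and TTCC with any 3 bases between them), IRF (GAAA, any 2 bases, GAAA), C/EBP (TTGCNNAA) and PU.1 (GAGGAAGT). Il1a and Il1b are neighbors on chromosome 2, where Il1a lies at chr2:129309923-129310222 and Il1b at chr2:129371090-129371389, both windows on the minus strand. Il1rn lies elsewhere on that chromosome, and of its 3 RefSeq windows, all on the plus strand, the one farthest downstream, chr2:24345121-24345420, is shown. The window at chr2:24345041-24345340 overlaps it. Il1r2 is on chromosome 1, with its window at chr1:40085843-40086142 on the plus strand, next to Il1r1 and followed by Il1rl2, Il1rl1 and Il18r1.
Il1a: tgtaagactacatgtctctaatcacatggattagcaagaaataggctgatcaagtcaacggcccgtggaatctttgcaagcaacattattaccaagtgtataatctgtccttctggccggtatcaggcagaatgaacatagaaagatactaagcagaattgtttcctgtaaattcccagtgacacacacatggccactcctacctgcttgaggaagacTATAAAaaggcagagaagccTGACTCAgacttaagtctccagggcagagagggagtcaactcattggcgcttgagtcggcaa
Il1b: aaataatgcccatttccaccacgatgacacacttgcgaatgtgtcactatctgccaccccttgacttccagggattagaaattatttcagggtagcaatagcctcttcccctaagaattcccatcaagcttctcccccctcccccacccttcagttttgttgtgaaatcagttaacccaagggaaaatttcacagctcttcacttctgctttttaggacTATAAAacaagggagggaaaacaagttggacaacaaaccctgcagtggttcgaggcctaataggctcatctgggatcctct
Il1rn: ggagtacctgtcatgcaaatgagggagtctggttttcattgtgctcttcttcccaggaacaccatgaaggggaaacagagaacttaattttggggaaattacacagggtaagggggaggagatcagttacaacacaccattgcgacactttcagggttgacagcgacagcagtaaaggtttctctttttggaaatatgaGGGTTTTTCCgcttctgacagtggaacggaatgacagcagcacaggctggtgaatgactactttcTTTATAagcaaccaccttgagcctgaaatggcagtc
Il1r2: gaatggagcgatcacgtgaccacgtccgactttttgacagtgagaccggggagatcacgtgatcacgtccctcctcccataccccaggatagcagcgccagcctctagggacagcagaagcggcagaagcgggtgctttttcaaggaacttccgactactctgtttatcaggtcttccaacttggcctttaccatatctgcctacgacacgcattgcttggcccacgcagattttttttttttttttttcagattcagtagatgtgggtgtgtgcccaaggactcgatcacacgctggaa
The windows of both agonists held a TATA box in the usual place, 32 bases before the start for Il1a and 31 for Il1b, and that of Il1a also held the AP-1 match TGACTCA. The Il1rn window held the NF-κB match GGGTTTTTCC beginning 51 bases before the start, with a TATA box match on the opposite strand after the start, and the Il1r2 window held none of the 6 motifs. The Il1rn window farthest upstream, chr2:24336610-24336909, held another NF-κB match, GGGCAGTTCC, and the AP-1 match TGAGTCA. Among the windows of all 9 genes the IRF motif matched only in that of Il1rap. Of all 32851 mouse windows, 13.6% held the TATA box motif, 7.81% the AP-1 motif, 5.56% the NF-κB motif and 3.44% the IRF motif. The C/EBP motif was in 10.8% and the PU.1 motif in 3.2%. A match describes the letters only, and binding was not measured here.

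Values are given as normalized counts, which are probe counts scaled in each sample to housekeeping genes. Probes differ in how well they capture their transcript, so levels of different genes were not compared. Where a gene is said to have the highest count of a list, this tells only which probe weighed most in the list's sum. Background came from the 8 negative control probes of each sample, as their mean with 2 SD added, scaled like the genes. It was 37.8, 29.8 and 28.1 normalized counts in PBS replicates 1, 2 and 3, and 37.2, 25.6 and 79.4 in IRF5-NP replicates 1, 2 and 3. The high background of IRF5-NP replicate 3 went with the lowest depth, 683472 counts over all genes against 1293665 to 1830318 in the other samples. Changes are log2 fold changes of IRF5-NP over PBS from limma, on log2(normalized count + 1), with p-values adjusted by the Benjamini-Hochberg method over all 754 genes and a threshold of 0.05.

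Some samples stood apart from their own group before any IL-1 gene was considered. The counts of PBS replicates 2 and 3 agreed within sampling noise over the 754 genes (chi-square per degree of freedom 1.07, p = 0.0782), and they were averaged and counted as 1 sample, so that 2 PBS samples were compared with 3 IRF5-NP samples. PBS replicate 1 differed from both others, with chi-square per degree of freedom of 179 and 158. IRF5-NP replicate 1 likewise differed from IRF5-NP replicates 2 and 3, at 97.8 and 54.0, whereas those last samples differed from each other at 7.07. PBS replicate 1 had the highest sum of neutrophil markers and the lowest sum of resident peritoneal macrophage markers of all 6 samples, and their values are given beside the genes they moved with. The markers of the gate were present in every sample. All 7 macrophage identity genes on the panel, with Itgam (CD11b) the one of highest count and Adgre1 (F4/80) among them, were above background in all 6. Itgam had 15550, 19762 and 19441 normalized counts in PBS and 15177, 36473 and 34393 in IRF5-NP, and Adgre1 had 6523, 9145 and 9049 in PBS and 8749, 25506 and 22544 in IRF5-NP. For both gate markers IRF5-NP replicate 1 was near the PBS samples or within their range, and IRF5-NP replicates 2 and 3 were above all PBS samples.

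The antagonist fell, while transcripts of neither agonist, Il1b or Il1a, passed the test in either direction. Il1a changed in the same direction as the antagonist, by -0.57 on the log2 scale. No test compared the change of one gene with that of another. Il1rn was 2.37-fold lower after IRF5-NP treatment, a call that held in 10 of 19 alternative settings. The call was lost with a common median, with quantile normalization and with any 1 IRF5-NP sample left out. Il1rn was the only gene of the 9 past the threshold. None rose and 8 did not pass, whereas over the panel 2.52% of genes were called higher and 7.03% lower, so that 1 lower call among 9 genes is close to the background. Over the panel these calls were 19 genes higher and 53 lower, a split that became 42 and 36 when samples were scaled to a common median and 35 and 40 with quantile normalization. The median change of the 9 genes was 0.04 on the log2 scale and that of all 754 genes was -0.03. Every IRF5-NP value lay below every PBS value for 2 genes, Il1rn and Il1r2, against 20.4% of the panel, and above every PBS value for 3, Il1rl1, Il18 and Il33, against 17% of the panel. The groups overlapped for the other 4.

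**Figure D1:**
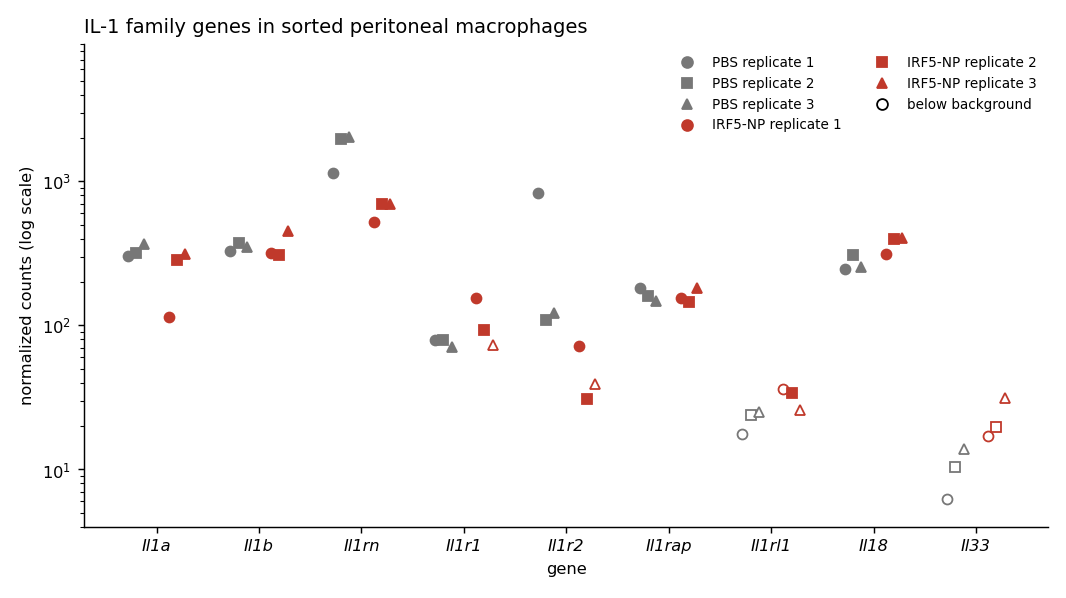
Normalized counts (log scale) of the 9 IL-1 family genes in each of the 3 PBS samples (grey) and 3 IRF5-NP samples (red), with open symbols for values below the background of their sample. Il1rn and Il1r2 values after IRF5-NP treatment all lie under the PBS values, PBS replicate 1 stands alone at 829 normalized counts of Il1r2, and Il1b values overlap.

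Il1b, the agonist that activated macrophages release through the inflammasome, had 330, 371 and 349 normalized counts in PBS replicates 1, 2 and 3. It had 318, 311 and 450 in IRF5-NP replicates 1, 2 and 3. The groups overlapped, with IRF5-NP replicate 3 the highest and the other IRF5-NP samples the lowest of all 6. The log2 fold change was 0.04 ± 0.24 (SE; limma adjusted p = 0.944), and its 95% interval ran from 0.699-fold to 1.51-fold, so that a change within those limits could not be seen with these samples. All values were well above background, with 173 to 359 counts before scaling.

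Il1a encodes the agonist that is active without caspase-1 and is often held in the cell or on its membrane. Its values were 303, 317 and 369 normalized counts in the PBS samples and 114, 283 and 312 in the IRF5-NP samples. IRF5-NP replicate 1 was low on its own, the highest IRF5-NP value being 2.73 times as large, and the other IRF5-NP samples fell on either side of the lowest PBS value. So large a spread among the IRF5-NP samples was seen in 5 of the 482 genes that were above background everywhere, Il1a included, whose median was 1.35 times. The log2 fold change was -0.57 ± 0.42 (SE; limma adjusted p = 0.484), and -0.11 without IRF5-NP replicate 1.

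Il1rn had 1138, 1969 and 2023 normalized counts in PBS replicates 1, 2 and 3, and 519, 701 and 702 in IRF5-NP replicates 1, 2 and 3. The groups were clearly apart, and the sample with the lowest value in each was replicate 1. The mean was 1567 ± 607 normalized counts in PBS (SD, n = 2) and 641 ± 105 in IRF5-NP (SD, n = 3). The log2 fold change was -1.25 ± 0.29 (SE; limma adjusted p = 0.0360), with a 95% interval from -1.92 to -0.58. Without PBS replicate 1 it was -1.65 (adjusted p = 0.0192), a fit in which, here as for every gene, the averaged PBS samples stood alone and the spread came from the IRF5-NP samples. The call was lost when IRF5-NP replicate 1, 2 or 3 was left out, with adjusted p-values of 0.0806, 0.0610 and 0.137, and when samples were scaled to a common median, where the log2 fold change was -1.01 with an adjusted p of 0.0625. The direction was the same in all 19 alternative settings and the call held in 10 of them. Among those 10 were both fits with PBS replicates 2 and 3 kept separate, both other pseudocounts and the background filter. Others left out PBS replicate 2 or 3, which are nearly the same. The call was also lost with quantile normalization (limma adjusted p = 0.0985), background subtracted (0.161), no variance trend (0.0875), Benjamini-Yekutieli adjustment and the methods' t-test.

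The genes whose pattern over the 5 samples was most like that of Il1rn, by the root mean square difference of centred log2 values among 629 genes, were Fpr2, Fgf2 and Col14a1, at 0.197, 0.221 and 0.227. Fgf2 was above background in only 4 samples, and its place in this order rests in part on values under background. Fpr2, which encodes a formyl peptide receptor of phagocytes, had 556, 914 and 926 normalized counts in the PBS samples and 274, 421 and 470 in the IRF5-NP samples. Those of Il1b were Hdac6, Retnla and Eif2b4, at 0.0524, 0.0851 and 0.109. Each of these 3 shared with Il1b a nearly level profile with its highest value in IRF5-NP replicate 3, such as Hdac6, a cytoplasmic deacetylase, at 138 normalized counts there and 100 to 120 in the other samples.

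**Figure D2:**
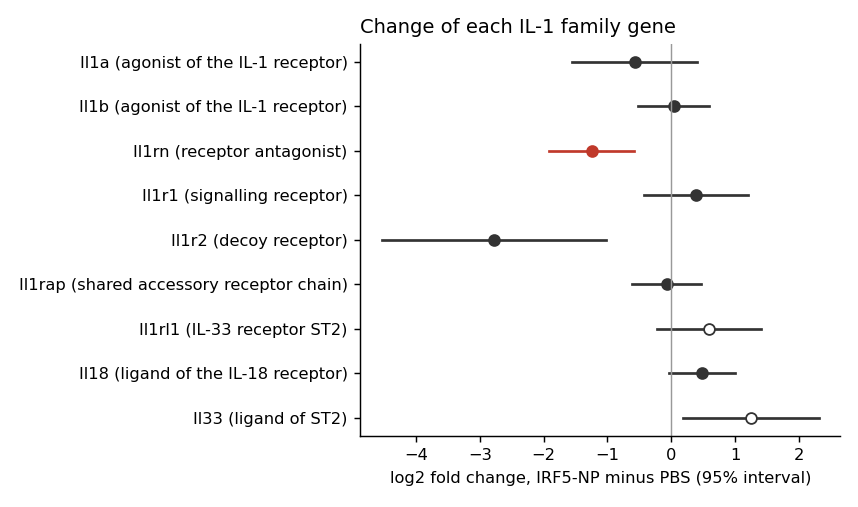
Log2 fold change of IRF5-NP over PBS for each of the 9 genes, with 95% intervals from limma, the gene past the threshold in red, and open circles for genes above background in no more than 1 sample. The interval of Il1rn lies between -1.92 and -0.58, and that of Il1b spans 0.

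Il1r2, the decoy receptor, differed in the same direction as the antagonist but was not past the threshold. It had 829, 109 and 123 normalized counts in PBS replicates 1, 2 and 3, and 72.4, 30.9 and 39.0 in IRF5-NP replicates 1, 2 and 3, the last below the background of its sample. All IRF5-NP values lay below all PBS values, and PBS replicate 1 was 7.63 times the lowest PBS sample, a spread within PBS that none of the 482 genes above background everywhere reached (median 1.29 times). The log2 fold change was -2.78 ± 0.76 (SE; limma adjusted p = 0.0599), and -1.36 without PBS replicate 1 (adjusted p = 0.255). The decoy therefore fell short of the threshold with that sample and without it, and the size of the difference rested on it. It passed in 4 of the 19 alternative settings.

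Neutrophils, which carry CD11b but not F4/80 and should be removed by the sort, also express Il1r2, and the sum of their markers was likewise highest in PBS replicate 1. Of 15 neutrophil markers, 9 were on the panel, and their sum was 6815, 2277 and 2252 normalized counts in the PBS samples and 2556, 1614 and 1910 in the IRF5-NP samples. S100a8, with the highest count of the list, had 3405, 1171 and 1189 in PBS and 987, 512 and 686 in IRF5-NP, and its partner S100a9, which encodes the other subunit of calprotectin, was also highest in PBS replicate 1, at 2598. Monocytes and some macrophages express both S100 genes too. Without these genes the other 7 markers summed to 812, 648 and 633 normalized counts in PBS and to 844, 1009 and 1151 in IRF5-NP. That sum was no longer highest in PBS replicate 1, and Csf3r made up the larger share of it. Without Csf3r as well, which went the other way, the remaining 6 summed to 367, 222 and 209 in PBS and to 187, 169 and 229 in IRF5-NP. This sum was highest in PBS replicate 1, where Mmp8, the elastase gene Elane and the chemokine receptor gene Cxcr2 had their highest values, at 157, 75.7 and 56.0. Elane was above background in 5 samples and Cxcr2 in 3, so the sum rests largely on genes near background. Among the 9, Mmp8, a neutrophil collagenase, was lower after IRF5-NP treatment (limma adjusted p = 0.0158) but above background in only 4 samples, and Csf3r, the G-CSF receptor gene, was higher (adjusted p = 0.0459). The defining marker Ly6g had 23.9, 25.9 and 22.5 normalized counts in PBS and 30.5, 30.9 and 44.2 in IRF5-NP and was above background in 1 sample, and Mpo was in none. The part of these markers in the Il1r2 values was not tested. In sorted cells measured in bulk, fewer cells of a type and less RNA per cell cannot be told apart.

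The signalling receptor chains did not pass the test either. Il1r1 had 79.9, 79.7 and 71.4 normalized counts in PBS replicates 1, 2 and 3, and 154, 93.7 and 72.8 in IRF5-NP replicates 1, 2 and 3, the last below its background. The groups overlapped, with IRF5-NP replicate 1 the highest and IRF5-NP replicate 2 also above every PBS value. The log2 fold change was 0.39 ± 0.35 (SE; limma adjusted p = 0.587), and 0.09 without IRF5-NP replicate 1. Il1rap, whose accessory chain also serves the IL-33 receptor, had 181, 161 and 149 normalized counts in PBS and 154, 144 and 182 in IRF5-NP. These values overlapped throughout, with a log2 fold change of -0.07 ± 0.23 (SE; limma adjusted p = 0.894) that turned to 0.17 with a common median, to 0.07 with quantile normalization and to 0.04 without PBS replicate 1.

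Agonist and restraint were also set against each other within each sample, where the scaling of the sample cancels. The ratio of Il1rn to Il1b was 3.45, 5.30 and 5.79 in PBS replicates 1, 2 and 3, and 1.63, 2.26 and 1.56 in IRF5-NP replicates 1, 2 and 3. These ratios did not overlap between the groups, and neither did Il1rn itself. With PBS replicates 2 and 3 averaged they were 2.44-fold lower in IRF5-NP, a difference of -1.29 on the log2 scale. Without PBS replicate 1 it was -1.63. Il1rn changed by -1.25 and Il1b by 0.04, so this difference is mostly that of Il1rn and not separate support. The ratio of Il1rn to Il1a was 3.76, 6.22 and 5.48 in PBS and 4.54, 2.47 and 2.25 in IRF5-NP. Here the groups overlapped, with IRF5-NP replicate 1, where Il1a was low, above PBS replicate 1, where Il1rn was lowest in PBS. The difference was -0.68, and -0.99 without PBS replicate 1. The ratio of decoy to signalling receptor, Il1r2 to Il1r1, was 10.4, 1.36 and 1.72 in PBS and 0.469, 0.329 and 0.536 in IRF5-NP. The groups were apart by -3.16 on the log2 scale, with both genes below background in IRF5-NP replicate 3 and PBS replicate 1 again far above the rest. Without PBS replicate 1 the difference was -1.79 on that scale. The ratios were compared with no test, and no share of separated ratios was taken over other gene pairs. Since probes differ in efficiency, these values are not ratios of molecules.

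**Figure D3:**
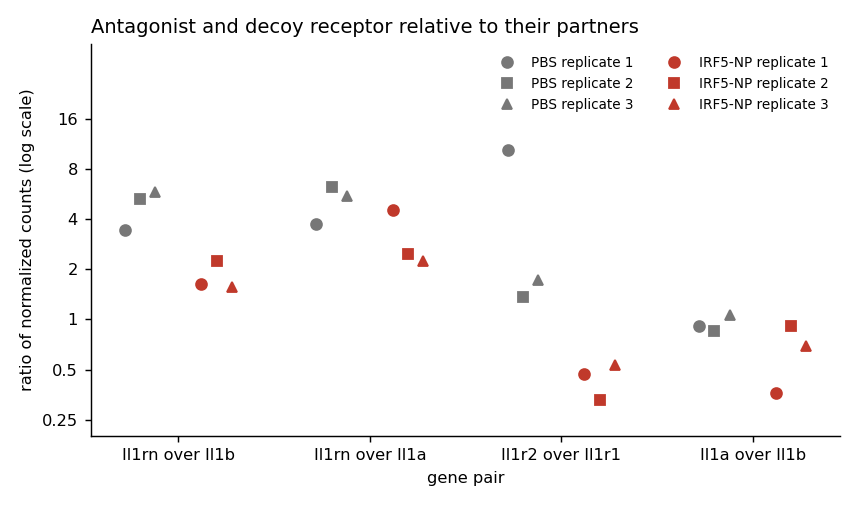
Ratios of normalized counts (log scale) in each PBS sample (grey) and IRF5-NP sample (red) for 4 pairs of genes. The antagonist over Il1b runs from 3.45 to 5.79 in PBS and from 1.56 to 2.26 in IRF5-NP, whereas the antagonist over Il1a overlaps.

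Values of Il18, Il33 and Il1rl1 were higher in every IRF5-NP sample than in any PBS sample, but none of these genes passed the test. Il18, a ligand that promotes interferon-γ production by T cells and NK cells, had 248, 308 and 253 normalized counts in PBS and 311, 396 and 408 in IRF5-NP. The nearest values of the groups differed by less than the spread within PBS, and the log2 fold change was 0.49 ± 0.22 (SE; limma adjusted p = 0.221). Il18r1, the ligand-binding chain of its receptor and the only other family member on the panel, had 41.5, 47.6 and 56.3 normalized counts in PBS and 165, 86.0 and 104 in IRF5-NP. The groups did not overlap, and the log2 fold change was 1.28 ± 0.34 (SE; limma adjusted p = 0.0565). Both Il18 and its receptor chain were above background in all 6 samples.

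Il33, an alarmin mostly made by stromal and epithelial cells, was below background in all 6 samples, with 6 to 18 counts before scaling. Its normalized counts were 6.22, 10.3 and 13.8 in PBS and 17.1, 19.8 and 31.2 in IRF5-NP, so the order of the groups was that of values which could not be told from the negative controls. Il1rl1, which encodes its receptor ST2, had 17.6, 23.8 and 25.0 in PBS and 36.2, 34.2 and 26.0 in IRF5-NP, and was above background only in IRF5-NP replicate 2. ST2 is best known from mast cells and from lymphocytes of the type-2 response. Of 20 mast cell and eosinophil markers, 16 were on the panel and 7 of those were below background everywhere, and they summed to 510, 547 and 541 normalized counts in PBS and to 799, 1132 and 1172 in IRF5-NP. The histidine decarboxylase gene Hdc, with the highest count of the list, was higher in IRF5-NP (limma adjusted p = 0.0218), as was the mast cell protease gene Cpa3 (adjusted p = 0.0327), which was above background in 2 samples. Without Hdc the other 15 markers summed to 367, 326 and 299 normalized counts in PBS and to 384, 267 and 359 in IRF5-NP, which overlap. Of the 16 markers, 5 had every IRF5-NP value above every PBS value, against 17% of the panel. They were Hdc, Cpa3, Cma1, Tpsb2 and Ms4a2, with Cma1 above background in 1 sample and Tpsb2 and Ms4a2 in none. Another 2, Kit and Ear3, had every IRF5-NP value below every PBS value, against 20.4% of the panel, with Ear3 below background in all 3 IRF5-NP samples and Kit in 1. The part of these markers in the Il1rl1 values was not tested.

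Genes around IL-1 signalling were taken from a list of 91, of which 35 were on the panel. None was called higher, 8 were called lower, which is 22.9% against 7.03% of the panel, and 27 did not pass. The count depended on the samples and the scaling, with 1 gene higher and 5 lower with a common median, 3 lower with quantile normalization and 1 lower with IRF5-NP replicate 3 left out. The median log2 fold change was -0.52. Every IRF5-NP value lay below every PBS value for 17 of the 35, against 20.4% of the panel, and above for 2, against 17%. Many of these genes also answer to TNF and Toll-like receptor signals, so the list is not particular to IL-1.

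The genes of the processing step did not pass in either direction. Casp1, the gene of the protease that cuts pro-IL-1β, changed by 0.30 ± 0.22 (log2, SE; limma adjusted p = 0.484), and Pycard, its adaptor, by 0.61 ± 0.26 (adjusted p = 0.186). Nlrp3, the sensor of the inflammasome and the component most induced by priming, had 1002, 543 and 618 normalized counts in PBS and 374, 469 and 543 in IRF5-NP. Its highest IRF5-NP value lay just under the lowest PBS value, with a log2 fold change of -0.74 ± 0.29 (SE; limma adjusted p = 0.160).

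Among 12 signalling genes, 4 were lower, or 33.3% against 7.03% of the panel, and 8 did not pass, with a median log2 fold change of -0.63. The 4 were Tnfaip3 and Nfkbia, both inhibitors of NF-κB that NF-κB itself induces, and Jun and Atf3, AP-1 and stress response factors. Tnfaip3 had 2242, 713 and 642 normalized counts in PBS and 221, 237 and 252 in IRF5-NP (log2 fold change -2.38, limma adjusted p = 0.0168). Atf3 had 5028, 1776 and 1691 in PBS and 958, 484 and 398 in IRF5-NP (-2.37, adjusted p = 0.0293). As with Il1r2, PBS replicate 1 was well above the other PBS samples for all 4 genes. Nfkbia fell by 1.48 and Jun by 1.70 on the log2 scale (limma adjusted p = 0.0293 and 0.0429). Jun lost its call with a common median (adjusted p = 0.0664), and Nfkbia, Jun and Atf3 lost theirs with quantile normalization (0.0509, 0.0882 and 0.0721). With PBS replicate 1 left out, which leaves 1 PBS sample, Tnfaip3 still passed, with a log2 fold change of -1.51 (adjusted p = 0.0164), and Nfkbia, Jun and Atf3 did not (adjusted p = 0.0739, 0.112 and 0.140). Their log2 fold changes were then -0.94, -0.94 and -1.60, so that part of the size of these differences rested on that sample. With IRF5-NP replicate 3 left out, none of the 4 passed (adjusted p from 0.0966 to 0.180), and with IRF5-NP replicate 1 left out, only Atf3 did (adjusted p = 0.0402). With IRF5-NP replicate 2 left out, Nfkbia and Jun did not pass (adjusted p = 0.0603 and 0.0797). The adaptor gene Myd88 changed by -0.47 (adjusted p = 0.225) and Traf6, the ubiquitin ligase downstream of it, by -1.02 (adjusted p = 0.0811).

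Of 19 genes that IL-1 is known to induce, 4 were lower, or 21.1% against 7.03% of the panel. The other 15 did not pass, 4 of which were below background everywhere, and the median log2 fold change was -0.90. Ccl2, the gene of the main chemokine for monocytes and the one of highest count, had 11562, 7616 and 7569 normalized counts in PBS and 1217, 646 and 696 in IRF5-NP (log2 fold change -3.52, limma adjusted p = 0.000929). It was low in every IRF5-NP sample, and of the 8 pathway genes called lower it alone stayed past the threshold whichever of the 6 samples was left out, including the fit with 1 PBS sample. The neutrophil chemokine gene Cxcl2, Tnf and the feedback inhibitor gene Socs3 fell by 2.18, 2.03 and 1.03 on the log2 scale (limma adjusted p = 0.0363, 0.00932 and 0.0380), with Tnf below background in IRF5-NP replicate 3. Cxcl2 and Socs3 lost their calls with a common median (adjusted p = 0.0517 and 0.0820) and with quantile normalization (0.0773 and 0.118). With PBS replicate 1 left out and 1 PBS sample remaining, Cxcl2 changed by -1.18 (adjusted p = 0.0475), and Tnf and Socs3 changed by -1.86 and -0.82 and did not pass (0.0741 and 0.165). None of the 3 passed with IRF5-NP replicate 3 left out (adjusted p from 0.0650 to 0.180), Cxcl2 did not with IRF5-NP replicate 1 left out (0.103), and Socs3 did not with IRF5-NP replicate 2 left out (0.135). Other IL-1 targets did not pass in either direction. Among them Vcam1, Nos2, Cxcl3 and Il23a had every IRF5-NP value below every PBS value, with log2 fold changes of -1.16, -1.48, -1.89 and -0.90 (limma adjusted p = 0.0583, 0.0696, 0.0843 and 0.168), Il23a being above background in 2 samples and Cxcl3 in 5. Ptgs2, which encodes cyclooxygenase-2, had 592 to 688 normalized counts in all 6 samples, and Il6 had 32.2, 148 and 139 in PBS and 88.5, 259 and 242 in IRF5-NP (1.36, adjusted p = 0.265).

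**Figure D4:**
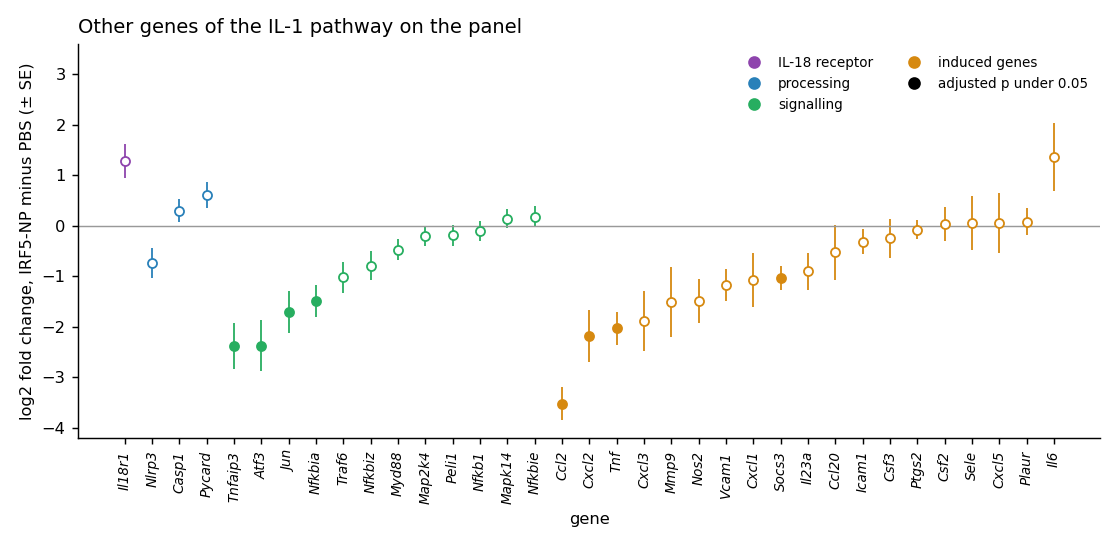
Log2 fold change of IRF5-NP over PBS, with SE from limma, for the 35 other IL-1 pathway genes on the panel, grouped into the IL-18 receptor, processing, signalling and induced genes, with filled circles for an adjusted p under 0.05. The 8 filled circles all lie below 0, from -3.52 for Ccl2 to -1.03 for Socs3.

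Of 54 cell type markers on the panel over 8 lists, 6 were called higher (11.1%, against 2.52% of the panel) and 4 lower (7.41%, against 7.03%). The groups overlapped for 30 of the 54, every IRF5-NP value lay above every PBS value for 14, against 17% of the panel, and below for 10, against 20.4%. Of 15 genes of resident large peritoneal macrophages, 4 were on the panel, and they summed to 4525, 14280 and 14062 normalized counts in PBS and to 18311, 31683 and 30831 in IRF5-NP, with Alox15 the gene of highest count. Timd4 and Selp of this list were higher (limma adjusted p = 0.0155 and 0.0423). The sums were lowest in PBS replicate 1 and, within IRF5-NP, in replicate 1, the same samples in which Il1rn was lowest within its group. Between the groups they went opposite ways, the sums being higher in IRF5-NP and Il1rn lower. Of the 7 macrophage identity genes, Mertk, an engulfment receptor gene, was lower (adjusted p = 0.0218), and the other 6 did not pass. The median log2 fold change of the list was -0.03, with 1.15 for Adgre1 and 0.61 for Itgam (adjusted p = 0.181 and 0.473). Fcgr1 changed by -0.86, with every IRF5-NP value below every PBS value (limma adjusted p = 0.0664). Cd14, Cd68 and Csf1r changed by -0.36, -0.03 and 0.03 (limma adjusted p = 0.677, 0.973 and 0.960). Itgax, of 6 dendritic cell markers on the panel, was lower (adjusted p = 0.00589) and below background in IRF5-NP replicate 3, and Ms4a1, a B cell gene among 5 lymphocyte markers, was higher (adjusted p = 0.0351) but above background in only 2 samples. Of 4 tumor, mesothelial and stromal markers, Cdh1 was lower (adjusted p = 0.0363, and 0.0663 with a common median) but above background in only 4 samples, and the fibroblast gene Pdgfra, with values in IRF5-NP all above those in PBS, did not pass (log2 fold change 1.04, adjusted p = 0.0843). None of 3 monocyte markers passed. Their sums were 3851, 4364 and 4297 normalized counts in PBS and 3348, 2608 and 2736 in IRF5-NP, which did not overlap. Cx3cr1, with the highest count of the list, and Ly6c1 had every IRF5-NP value below every PBS value (log2 fold changes -0.69 and -0.70, adjusted p = 0.0696 and 0.140). Of these 10 called markers, Itgax alone passed whichever sample was left out, again including the fit with 1 PBS sample. The other 9 did not pass with PBS replicate 1 left out (adjusted p from 0.0738 to 0.235) or with IRF5-NP replicate 3 left out (0.0650 to 0.201). Without PBS replicate 1 the log2 fold change of Selp was 1.38, against 2.19 with it, whereas that of Timd4 was 2.14 against 2.48, of Csf3r 0.91 against 0.88, of Ms4a1 1.76 against 1.49 and of Cdh1 -1.28 against -1.19. Those of Mertk, Mmp8, Cpa3 and Hdc were then -0.89, -1.44, 1.46 and 1.52, against -1.23, -1.86, 1.80 and 1.86. Whether a shift in the sorted cells had a part in the Il1rn values was not tested. Irf5 itself had 2573, 1991 and 1929 normalized counts in PBS and 1960, 2358 and 2294 in IRF5-NP (log2 fold change -0.03, limma adjusted p = 0.947). The delivered mRNA was codon-optimized, and whether this probe reads it is not given in the sources used here, so its level does not check the labels. Ikbkb, the gene of IKKβ, is not among the panel's symbols.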

How the data were processed

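Per the labels, RNA of 6 sorted macrophage samples was measured on the NanoString myeloid panel. The deposited values are a signal, normalized counts on a linear scale that the authors scaled to the geometric mean of housekeeping genes, as the methods state for cultured macrophages with nSolver. The values themselves were not on a log2 scale. The table has 754 genes, 8 negative and 6 positive control probes, and the controls are unscaled. All gene values were whole multiples of 1 factor per sample (tolerance 0.01 normalized counts). PBS replicates 1, 2 and 3 had factors of 1.04, 1.03 and 1.25, and IRF5-NP replicates 0.952, 1.10 and 2.60. Values divided by them served for depth, background and the comparison of replicates only. The factor was seen directly in PBS, where the lowest gene had 1 count, and in IRF5-NP, where the lowest had 3, 4 and 2, it is the common step of all values, so depths and counts before scaling rest on that step. Depth was 1830318, 1603281 and 1302733 counts in PBS and 1293665, 1598272 and 683472 in IRF5-NP, and 124 genes were below background in all samples.

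Groups were taken from the labels. Log2 values (pseudocount 1) were fitted by lmFit in limma 3.58.1 (R 4.3.3), and eBayes moderated the variances along their trend with the mean. Tests were two-sided, with Benjamini-Hochberg adjustment over 754 genes and no filter. The fit was tested on simulated data, and no result of that test is given here. Members and gene lists were chosen with earlier results of these data known, so counts within lists are descriptions. Some genes of the panel are not reported here and were left out of the list counts. Named were all 9 members, in each list the genes past the threshold and the gene of highest mean count, the delivered genes, and the 3 genes most like Il1b and Il1rn. Casp1, Pycard, Nlrp3, Myd88, Traf6, Ptgs2, Il6, Vcam1, Nos2, Cxcl3, Il23a, S100a9, Ly6g, Mpo, Elane, Cxcr2, Kit, Ear3, Cma1, Tpsb2, Ms4a2, Ly6c1, Pdgfra, Adgre1, Fcgr1, Cd14, Cd68 and Csf1r were named after their values were seen. Pairing by replicate number was checked by correlating deviations from group means over 482 genes. Of 21 other settings set out, 19 were run. Of 754 symbols, 744 matched RefSeq by symbol and 9 by synonym. Figures and promoter searches used Python 3.11.15, pandas 2.3.3 and matplotlib 3.10.9.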

Additional observations from a re-analysis of the deposited data

How the results depend on the processing

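Of 21 other settings set out, 19 were run, and 2 count-based tests were not, because whole counts could not be fully checked in the IRF5-NP samples, where no gene is as low as 1 count (lowest 3, 4 and 2). The panel count of 72 genes became 121 with 6 separate samples, a fit that counts the alike PBS replicates 2 and 3 as 2. It became 24 with background subtracted, 41 without a variance trend, 125 with array weights, 21 with Benjamini-Yekutieli adjustment and 0 by the methods' t-test. That t-test was run with Benjamini-Hochberg in place of the Benjamini-Yekutieli adjustment that the methods name. It had 125 genes at an unadjusted p under 0.05 against 191 by limma. Leaving out 1 sample gave 21 to 83 genes, the lowest number for IRF5-NP replicate 3, against 35 for PBS replicate 1 and 41 for IRF5-NP replicate 2. The common median moved the median of all genes from -0.03 to 0.21 and the split from 19 higher and 53 lower to 42 and 36, and quantile normalization to 35 and 40. The IL-1 family count of 1 was 0 with a common median, quantile normalization, background subtracted, no variance trend, Benjamini-Yekutieli adjustment and the methods' t-test, 2 with a robust variance prior and with array weights, and 0 to 2 with 1 sample left out. The gene that joined Il1rn was Il1r2, with an adjusted p of 0.0499 with the robust prior, 0.0181 with array weights and 0.0473 without PBS replicate 2. The pathway count of 8 was 3 with quantile normalization, 1 with background subtracted, 3 without a variance trend, 1 with Benjamini-Yekutieli adjustment, 0 by the methods' t-test and 1 to 9 with 1 sample left out. It was 3 when PBS replicate 1 was left out, 4 when IRF5-NP replicate 1 was, 5 when IRF5-NP replicate 2 was, and 1 when IRF5-NP replicate 3 was. The log2 fold change of Il1b turned to -0.024 without PBS replicate 1 and -0.132 in the absence of IRF5-NP replicate 3, and ran from -0.132 to 0.133 with 1 sample left out, whereas it was 0.278 with a common median and 0.231 with quantile normalization. That of Il1rap turned to 0.165 with a common median, 0.0743 with quantile normalization and 0.0398 without PBS replicate 1, and ran from -0.168 to 0.0398 with 1 sample left out. The cause of these differences was not tested. No result for Il1rn turned direction, with log2 fold changes from -1.65 to -1.01 and adjusted p-values from 0.00219 to 0.273 over the 19 alternatives. The lowest, 0.00219, and the next, 0.0102, came from limma fits with 6 separate samples, which count PBS replicates 2 and 3 as 2.

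Same-numbered samples deviated together with correlations of 0.159, 0.178 and 0.0953 for numbers 1, 2 and 3, against 0.144 between PBS replicate 3 and IRF5-NP replicate 2, so the numbers were not taken to pair the samples. With 6 separate samples and a replicate block, 135 panel genes, 2 IL-1 family genes and 11 pathway genes passed, the limma adjusted p of Il1r2 being 0.0113. That fit counts the alike PBS replicates 2 and 3 as 2 samples and uses the pairing that was not taken here. Its counts and p-values therefore overstate what these samples show. The shallow IRF5-NP replicate 3 limits what can be seen of genes near background, here Il1r1, Il1r2, Il1rl1 and Il33.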
